A study of Mus musculus with 22 samples.

Results

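The vitamin D receptor (VDR) was mapped by chromatin immunoprecipitation sequencing (ChIP-seq) with calcitriol in differentiated and in undifferentiated MC3T3-E1 cells, and the lists of VDR sites of the states were compared by overlap. The differentiated list held 871 sites on chromosomes 1 to 19 and X, and the undifferentiated list 7000, together 7871 of the 360258 regions in the 22 lists of the series. An undifferentiated site was called kept when a differentiated site overlapped it by at least 1 bp and lost when none did, and a differentiated site without an undifferentiated counterpart was called differentiated only. MC3T3-E1 is a single mouse pre-osteoblastic line, used at passages 5 to 12. Differentiated cells were cultured for 15 days with ascorbic acid and glycerol-2-phosphate, which lead the line to deposit mineralized matrix, and undifferentiated cells did not go through this culture. Cells of both states received 100 nM of calcitriol, 1,25(OH)2D3, for 3 h, and VDR was precipitated with the same C-20 antibody. VDR and RXR, its partner, were also mapped in cells of both states given ethanol vehicle for 3 h; a vehicle call below is a VDR site of such a list, in undifferentiated cells unless stated, and all other calls are with calcitriol unless vehicle is named. Differentiated cultures were also homogenized and spun through sucrose to remove the matrix, so that state and preparation cannot be told apart. The lists hold no expression values, so the labelled cell state was not checked by its marker transcripts.

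VDR is a nuclear receptor that binds calcitriol, pairs with the retinoid X receptor (RXR) and recognizes a DR3, a direct repeat of a hexamer with a short spacer. In osteoblasts it acts on genes of matrix and mineral metabolism, on Tnfsf11 (RANKL, the cytokine that drives osteoclast formation) and on Cyp24a1, the enzyme that breaks calcitriol down. C/EBPβ, a leucine zipper factor, and RUNX2, the master factor of the osteoblast lineage, bind many of the same enhancers. H3K4me1 marks enhancers, H3K4me3 promoters, and H4K5ac and H3K9ac active chromatin.

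The sites below were chosen because they show each outcome at a gene of mineralized tissue or of calcitriol metabolism. Each is the whole called region of 201 bp on the plus strand of build mm9, with the DR3 that matched the consensus with at most 1 mismatch in capitals; the element of the Cyp24a1 site at 35.3 kb reads on the minus strand. Distances are from the nearest annotated start of the gene, and a negative distance is upstream. Spp1 encodes osteopontin, a phosphoprotein of bone matrix, and the site at -0.8 kb holds the response element long known in the mouse osteopontin promoter. Mmp13 encodes a collagenase of bone and cartilage, and Mgp encodes matrix Gla protein, an inhibitor of calcification.
Spp1 -1.9 kb, kept, chr5:104862135-104862335: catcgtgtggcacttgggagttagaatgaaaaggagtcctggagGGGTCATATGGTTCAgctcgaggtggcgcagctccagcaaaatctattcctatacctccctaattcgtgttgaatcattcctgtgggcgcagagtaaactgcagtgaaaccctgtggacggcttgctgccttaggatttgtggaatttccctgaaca
Spp1 -0.8 kb, kept, chr5:104863284-104863484: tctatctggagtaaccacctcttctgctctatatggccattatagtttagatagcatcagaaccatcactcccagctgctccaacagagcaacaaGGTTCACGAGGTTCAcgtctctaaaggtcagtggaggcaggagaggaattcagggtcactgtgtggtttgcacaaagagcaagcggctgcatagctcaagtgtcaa
Mmp13 -10.4 kb, kept, chr9:7262013-7262213: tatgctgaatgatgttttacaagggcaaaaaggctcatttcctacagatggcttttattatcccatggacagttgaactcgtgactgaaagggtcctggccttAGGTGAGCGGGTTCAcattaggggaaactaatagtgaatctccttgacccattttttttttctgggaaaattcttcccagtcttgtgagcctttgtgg
Mmp13 -10.8 kb, differentiated only, chr9:7261572-7261772: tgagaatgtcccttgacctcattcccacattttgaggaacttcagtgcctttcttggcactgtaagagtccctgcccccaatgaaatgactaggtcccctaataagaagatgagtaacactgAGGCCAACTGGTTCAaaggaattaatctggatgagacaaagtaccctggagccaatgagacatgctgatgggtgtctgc
Mgp 9.2 kb, kept, chr6:136814994-136815194: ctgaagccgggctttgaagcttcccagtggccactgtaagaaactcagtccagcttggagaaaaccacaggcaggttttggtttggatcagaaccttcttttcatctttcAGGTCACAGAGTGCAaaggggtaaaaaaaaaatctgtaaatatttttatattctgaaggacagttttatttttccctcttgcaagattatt
Cyp24a1 37.1 kb, lost, chr2:170285419-170285619: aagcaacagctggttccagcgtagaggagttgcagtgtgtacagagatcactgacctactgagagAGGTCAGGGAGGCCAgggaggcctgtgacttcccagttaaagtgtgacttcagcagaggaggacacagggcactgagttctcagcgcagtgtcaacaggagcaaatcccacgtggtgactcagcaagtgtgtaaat
Cyp24a1 35.3 kb, lost, chr2:170287216-170287416: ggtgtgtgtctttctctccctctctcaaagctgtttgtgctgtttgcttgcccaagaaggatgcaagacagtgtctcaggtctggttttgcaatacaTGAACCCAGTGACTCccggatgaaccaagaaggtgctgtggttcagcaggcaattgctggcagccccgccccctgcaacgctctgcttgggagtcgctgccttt

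Elements that matched the DR3 consensus with 0 mismatches at some of the named genes are set side by side next, each 15 bases long and read 5′ to 3′ on the strand given, to show that kept and lost sites both held full matches. Cebpb encodes C/EBPβ, Sparc osteonectin, a collagen-binding matrix protein, Igfbp2 an insulin-like growth factor binding protein and Lrp5 a Wnt co-receptor. The lost sites of Cebpb and Lrp5 had the same 15 bases.
Cebpb 76.3 kb, kept, chr2:167590768-167590782, - strand: GGGTCAGCCGGTTCA
Igfbp2 66.3 kb, kept, chr1:72961564-72961578, - strand: GGTTCAACCAGTTCA
Sparc -3.9 kb, kept, chr11:55219516-55219530, + strand: GGTTCAAAGGGTTCA
Spp1 -1.9 kb, kept, chr5:104862179-104862193, + strand: GGGTCATATGGTTCA
Spp1 -0.8 kb, kept, chr5:104863379-104863393, + strand: GGTTCACGAGGTTCA
Cebpb -20.8 kb, lost, chr2:167493614-167493628, - strand: GGGTCACTGGGGTCA
Igfbp2 -85.9 kb, lost, chr1:72785062-72785076, - strand: AGGTCATTAAGTTCA
Lrp5 0.7 kb, lost, chr19:3685884-3685898, + strand: GGGTCACTGGGGTCA

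The third kind of sequence belongs to kept promoter sites that were also called under vehicle in both states and had no DR3. The 25 bases around an ETS motif (CCGGAAG, in capitals) are shown for 3 zinc finger genes of a cluster on chromosome 13. Only sites that hold the motif are shown. The sites of this sort at Zfp187, in the same cluster, and at Cox7a2 and Pfdn5 had no ETS motif.
Zkscan3, kept, chr13:21494611-21494635, - strand: ctagagaagCCGGAAGtgctctgtg
Zkscan4, kept, chr13:21570696-21570720, + strand: tagagggcgCCGGAAGtggcttggg
Zfp192, kept, chr13:21622970-21622994, - strand: agagagcttCCGGAAGtggctgtgg

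Most VDR sites of differentiated cells had also been called in undifferentiated cells. Of the 871 differentiated sites, 791 (90.8%, exact 95% interval 88.7 to 92.6) overlapped an undifferentiated site and 80 (9.18%) were differentiated only. Of the 7000 undifferentiated sites, 794 (11.3%, 10.6 to 12.1) were kept and 6206 (88.7%) were lost. Sites called under vehicle in the same state were then left out of both lists. Of 617 remaining differentiated sites, 442 (71.6%, 67.9 to 75.2) overlapped a remaining undifferentiated site. Of 6214 remaining undifferentiated sites, 442 (7.11%, 6.49 to 7.78) were kept. Part of the lower first share came from counterparts that the filter removed. Against the whole undifferentiated list, only 42 of the 617 were differentiated only. Each state was 1 list, taken to be what the authors' replicates had in common, so no spread between cultures and no test could be given. Intervals cover the counting of regions only, which are not replicates and whose depth is unknown. A lost site was one that was not called again; whether VDR was absent there cannot be read from the list. In a bulk assay, fewer cells with VDR at a site and less VDR per cell cannot be told apart.

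Kept pairs had centres less than 201 bp apart by the overlap rule, since every VDR region was 201 bp wide. In the 791 differentiated sites, 787 overlapped 1 undifferentiated site and 4 overlapped 2. The centres were a median of 33 bp apart (quartiles 15 and 56 bp), 70.7% lay within 50 bp of each other, and the largest distance was 170 bp. Just outside the overlap rule, 9 of the 80 differentiated-only sites had the centre of an undifferentiated site 201 to 483 bp away. The differentiated-only Mmp13 site at -10.8 kb was among them, 441 bp from the kept site at -10.4 kb. The median distance of all 80 to an undifferentiated site was 169050 bp. The kept share lay between 7.64% on chromosome 3 and 15.5% on chromosome 5.

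RXR, the partner of VDR, did not thin out in the same way. Its list held 8126 sites in differentiated and 7591 in undifferentiated cells, and 2912 of the undifferentiated sites (38.4%) were lost. RXR sites that carried VDR in undifferentiated cells were called again in 73.3% (71.9 to 74.6) of 4189 cases, and those without VDR in 47.3% (45.6 to 49.0) of 3402. The lost VDR sites thus included many where RXR was still called. Of the 3661 lost sites with RXR in undifferentiated cells, 2581 (70.5%, 69.0 to 72.0) also had RXR in differentiated cells, as did 485 of 539 such kept sites (90.0%, 87.1 to 92.4).

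**Figure D1:**
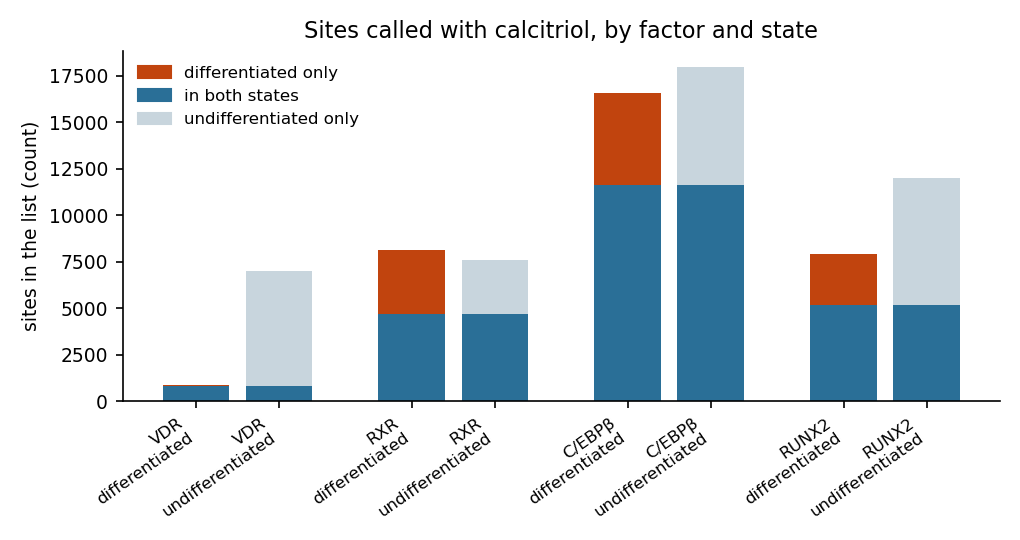
Number of sites called with calcitriol for VDR, RXR, C/EBPβ and RUNX2 (vertical axis, count), with the differentiated list left of the undifferentiated list of each factor; colours give sites in both states, differentiated only and undifferentiated only. The VDR pair shows 871 against 7000 sites, while the RXR pair shows 8126 against 7591.

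H3K4me1, H4K5ac and H3K9ac, unlike H3K4me3 and H3K36me3, were called again at nearly all lost VDR sites that had carried them. H3K4me1 was called in differentiated cells at 98.8% of the kept sites that had it in undifferentiated cells and at 98.6% (98.3 to 98.9) of such lost sites, 5889 of 5970. H4K5ac was called again at 98.8% of the kept and 96.4% (95.9 to 96.9) of lost sites, and H3K9ac at 98.3% (96.9 to 99.2) and 96.0% (95.3 to 96.6). Regions of marks can be far wider than a VDR site, up to 469159 bp for H4K5ac of undifferentiated cells. A share over all regions of each mark was not computed. C/EBPβ was called again at 70.4% (65.0 to 75.4) of the kept and 65.5% (63.7 to 67.2) of lost sites, and RUNX2 at 59.9% (54.7 to 65.0) of the kept and 58.0% (56.3 to 59.6) of lost sites, intervals that overlap for both factors. Over all undifferentiated sites of each factor, with or without VDR, C/EBPβ was called again at 64.7% (64.0 to 65.4) and RUNX2 at 43.1% (42.3 to 44.0). H3K4me3, the promoter mark, was called again at 82.2% (77.3 to 86.4) of the kept and 55.5% (52.5 to 58.4) of lost sites. For H3K36me3, another mapped mark, the shares were 63.6% (57.0 to 69.8) of the kept and 65.3% (63.1 to 67.4) of lost sites. Of the 6206 lost sites, 36.4% (35.2 to 37.6) had no RXR, C/EBPβ or RUNX2 call in differentiated cells, and 15.9% (15.0 to 16.9) had all 3 of them.

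Kept and lost sites differed in what they carried. RXR of differentiated cells lay at 70.2% (66.8 to 73.3) of the kept and 52.3% (51.1 to 53.6) of lost sites, a difference of 17.8 percentage points (Newcombe 95% interval 14.3 to 21.2). That difference was 37.1 points when sites called under vehicle were left out. The list of RXR sites mapped with vehicle in undifferentiated cells had the opposite order. It covered 39.7% (36.3 to 43.2) of the kept and 50.5% (49.3 to 51.8) of lost sites, a difference of -10.9 points (-14.4 to -7.21). The list covered 16.2% (11.1 to 22.4) of the kept sites with a DR3 and no vehicle call. Its share was 45.6% (40.1 to 51.1) with a vehicle call and no DR3, 44.9% (38.8 to 51.1) with neither and 19 of 25 with both. A DR3 was found at 25.7% (22.7 to 28.9) of kept, 13.4% (12.6 to 14.3) of lost and 6 of the 80 differentiated-only sites (interval 2.80 to 15.6%), against 1.18% of 14000 flanking windows 2 kb away. The kept minus lost difference of 12.3 points became 26.1 without vehicle sites, 24.2 without promoter sites, 6.98 in a window of 100 bp and 3.41 with exact matches. RUNX2 of undifferentiated cells lay at 46.2% of the kept and 54.9% of lost sites, a difference of -8.73 points (-12.4 to -5.03), which was -2.51 (-7.10 to 2.03) without promoter sites.

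Promoter-linked features depended on the sites called under vehicle. Of the kept sites 37.4% (34.0 to 40.9) and of the lost sites 12.5% (11.7 to 13.4) lay within 1 kb of an annotated start, a difference of 24.9 points that turned to -1.52 (-3.80 to 1.43) without vehicle sites. H3K4me3 of differentiated cells lay at 36.4% of the kept and 11.8% of lost sites, a difference of 24.6 points that turned to -2.85 without vehicle sites and was 2.38 without promoter sites. H3K9ac of differentiated cells lay at 84.4% of the kept and 73.1% of lost sites, a difference of 11.3 points that was 1.85 without vehicle and 6.83 without promoter sites. C/EBPβ of undifferentiated cells lay at 39.5% of the kept and 44.7% of lost sites. Its difference of -5.17 points turned to 7.34 without vehicle and 6.11 without promoter sites. The kept share was 27.7% (25.0 to 30.4) within 1 kb of a start, and between 7.85% and 8.84% in each of 5 bins of larger distance.

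**Figure D2:**
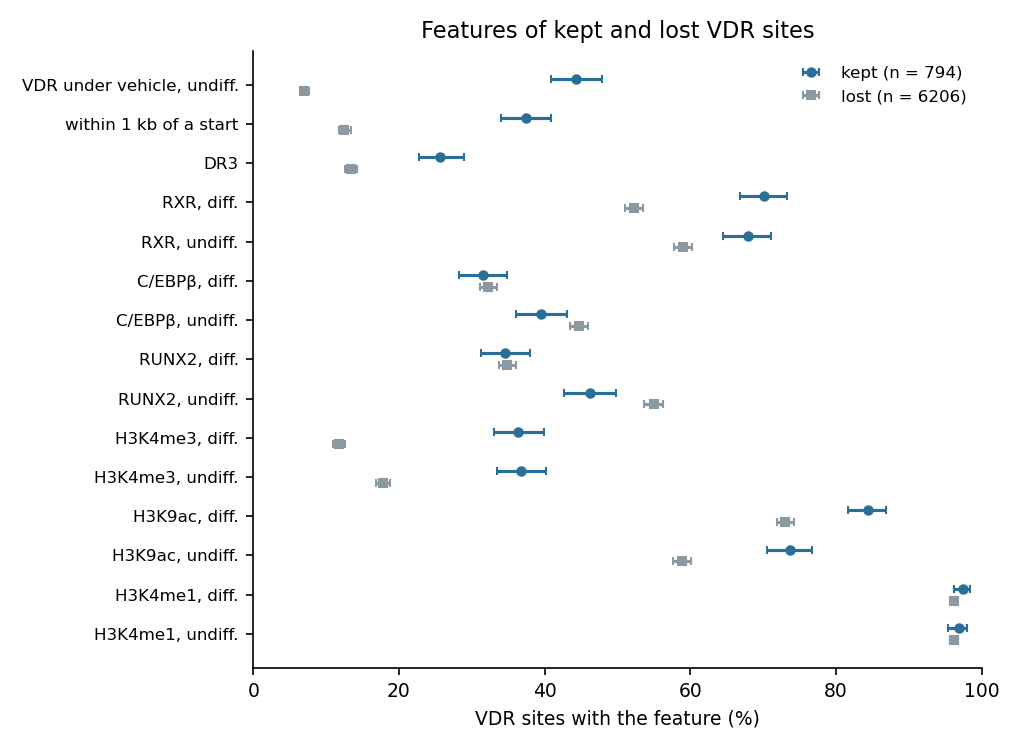
Share of kept (blue circles, drawn above) and lost (grey squares) VDR sites with each feature (horizontal axis, percent of sites); bars are exact 95% intervals, and diff. and undiff. name the state of the list. Vehicle calls, promoter position, DR3, RXR with calcitriol and H3K4me3 were more frequent at kept sites, whereas H3K4me1 was called at over 96% of sites of both kinds.

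The kept sites fell into 3 large kinds. The first kind, 327 of 794 (41.2%, 37.7 to 44.7), had a VDR call under vehicle in undifferentiated cells and no DR3. Of these, 258 (78.9%) lay within 1 kb of a start and 41.6% (36.2 to 47.1) had RXR in differentiated cells. A GC box (GGGCGG) was found at 38.5% of them, against 3.11% of flanking windows, and the ETS motif at 26.3%, against 0.886%. These windows flank all 7000 undifferentiated sites, of which 1074 lay within 1 kb of a start. A comparison with other promoter sequence was not made. The second kind, 179 sites (22.5%, 19.7 to 25.6), had a DR3 and no vehicle call. Only 9 of these lay at promoters, 161 (89.9%, 84.6 to 93.9) had RXR in differentiated cells and 0 held the ETS motif. A further 25 sites had both a vehicle call and a DR3, and all 25 had RXR in differentiated cells. The third kind, 263 sites (33.1%, 29.9 to 36.5), had neither, yet 235 (89.4%, 85.0 to 92.8) had RXR in differentiated cells. With 2 mismatches allowed, 147 of the 263 held a DR3 match (55.9%), against 14.2% of the flanking windows. The DR4, the same repeat with a spacer of 4 bases, was found with at most 1 mismatch at 13.7% (9.77 to 18.4) of the third kind and at 3.91% (1.59 to 7.89) of the second kind, against 1.41% of flanking windows.

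The kept share differed between these kinds. Of all undifferentiated sites with a vehicle call and no DR3, 327 of 759 were kept (43.1%, 39.5 to 46.7), and of those with both, 25 of 27 (92.6%, 75.7 to 99.1). Sites with a DR3 and no vehicle call were kept in 179 of 1008 cases (17.8%, 15.4 to 20.3), and those with neither in 263 of 5206 (5.05%, 4.47 to 5.68). Sites called under vehicle in undifferentiated but not in differentiated cells were kept in 136 of 566 cases (24.0%, 20.6 to 27.8). Those called under vehicle in both states, 216 of 220 of them kept, were by this choice already VDR sites of differentiated cells, so that share is no separate measure of keeping. Among the 6214 sites with no vehicle call in undifferentiated cells, a DR3 together with RXR in differentiated cells went with a kept share of 45.7% (40.4 to 51.1), 161 of 352. A DR3 at which RXR was not called was kept in 18 of 656 cases (2.74%, 1.63 to 4.30). RXR without a DR3 gave 7.65% (6.73 to 8.65), 235 of 3072, and neither gave 1.31% (0.874 to 1.89), 28 of 2134. With an exact DR3, the kept shares were 34 of 51 (66.7%, 52.1 to 79.2) with RXR of differentiated cells and 7 of 146 (4.79%, 1.95 to 9.63) without it. VDR and RXR of differentiated cells were mapped in cultures of the same state and preparation. Split instead by RXR of undifferentiated cells, sites with a DR3 were kept in 32.6% (28.4 to 37.1) of 475 cases with RXR and 4.50% (2.91 to 6.63) of 533 without. Outside promoters, all 20 sites with a vehicle call and a DR3 were kept (exact interval 83.2 to 100.0%).

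**Figure D3:**
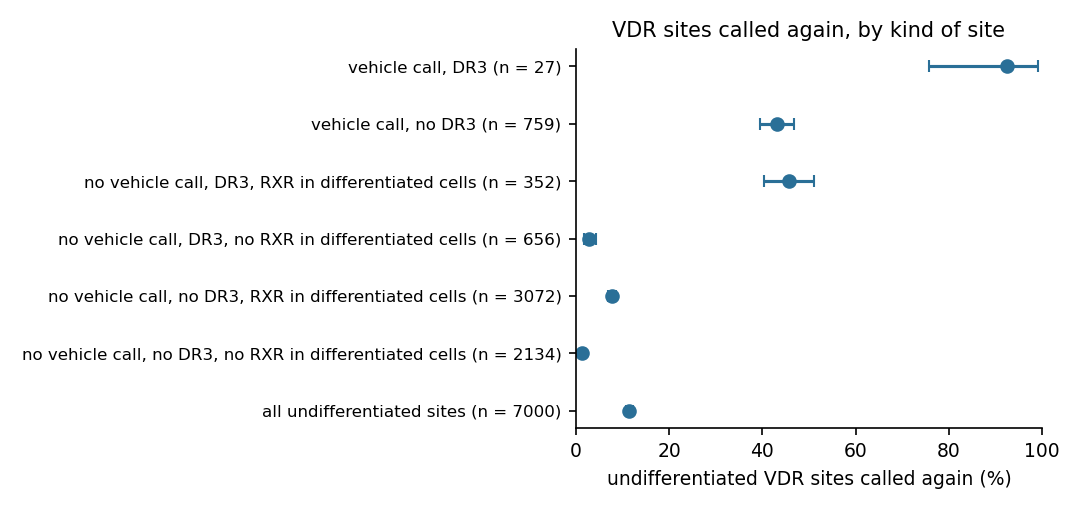
Share of undifferentiated VDR sites called again in differentiated cells (horizontal axis, percent; points with exact 95% intervals) by kind of site, with the number of sites in each row label. Sites with a vehicle call and no DR3 stand at 43.1% and sites with a DR3 and RXR but no vehicle call at 45.7%, against 11.3% of all sites.

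The match to the DR3 consensus differed between kept and lost sites, while the place of the element within the site differed little. The kept share was lower with more DR3 mismatches, at 23.2% (17.5 to 29.6) for 0 mismatches, 18.9% (16.3 to 21.7) for 1, 12.4% (10.8 to 14.1) for 2 and 9.03% (8.20 to 9.91) for more. The consensus leaves the last spacer base (position 9 from the 5′ end) free. Among the 204 kept and 831 lost elements with at most 1 mismatch, this base was G in 65.7% (58.7 to 72.2) of the kept and 57.4% (54.0 to 60.8) of lost elements, intervals that overlap. The elements stood at a median of 32.5 bp from the centre of the kept and 33.5 bp from the centre of lost sites. AP-1 motifs (TGANTCA) were found at 10.3% (8.30 to 12.7) of the kept and 15.3% (14.4 to 16.2) of lost sites, against 6.13% of flanking windows. The kinds of kept site differed: AP-1 was at 4.59% (2.59 to 7.45) of the first kind, with a vehicle call and no DR3. It was at 13.4% (8.78 to 19.3) of the second kind, 15.6% (11.4 to 20.5) of the third and 2 of the 25 with both. The RUNX motif was found at 20.9% (18.1 to 23.9) of the kept and 27.7% (26.6 to 28.8) of lost sites, against 8.74% of flanking windows. The share by number of neighbours depended on the sites counted. Among all sites, those in groups of 5 or more within 50 kb were kept in 10.2% (8.37 to 12.2) of cases and those alone in 12.8% (11.5 to 14.2). Among sites with a DR3 the order was the opposite, at 29.2% (21.6 to 37.8) in groups and 13.9% (10.8 to 17.6) alone, and among sites with no vehicle call the shares were 8.75% (7.02 to 10.7) and 6.49% (5.47 to 7.64), intervals that overlap.

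Sites were assigned to every protein-coding gene with an annotated start within 100 kb. A differentiated site was found at 2697 genes (12.1% of 22208) and an undifferentiated site at 9082 (40.9%). Of those 9082 genes, 2645 (29.1%) still had a differentiated site and 6437 (70.9%, 69.9 to 71.8) lost all their sites. All undifferentiated sites were kept at 1032 genes and some at 1613, counting 39 genes whose differentiated site was differentiated only. Genes with more sites, which have more sites to keep, had a differentiated site more often: 20.6% (19.4 to 21.8) of 4592 genes with 1 site and 76.3% (65.2 to 85.3) of 76 genes with 10 or more. The kept share of pairs of a gene and a site, in which a site near several genes counts for each of them, ran the other way. It was 17.1% of the pairs at genes with 2 sites and 9.93% of those at genes with 10 or more. These are shares of pairs and not of sites. Neighbouring genes can share a site, and a site near a gene need not act on it.

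**Figure D4:**
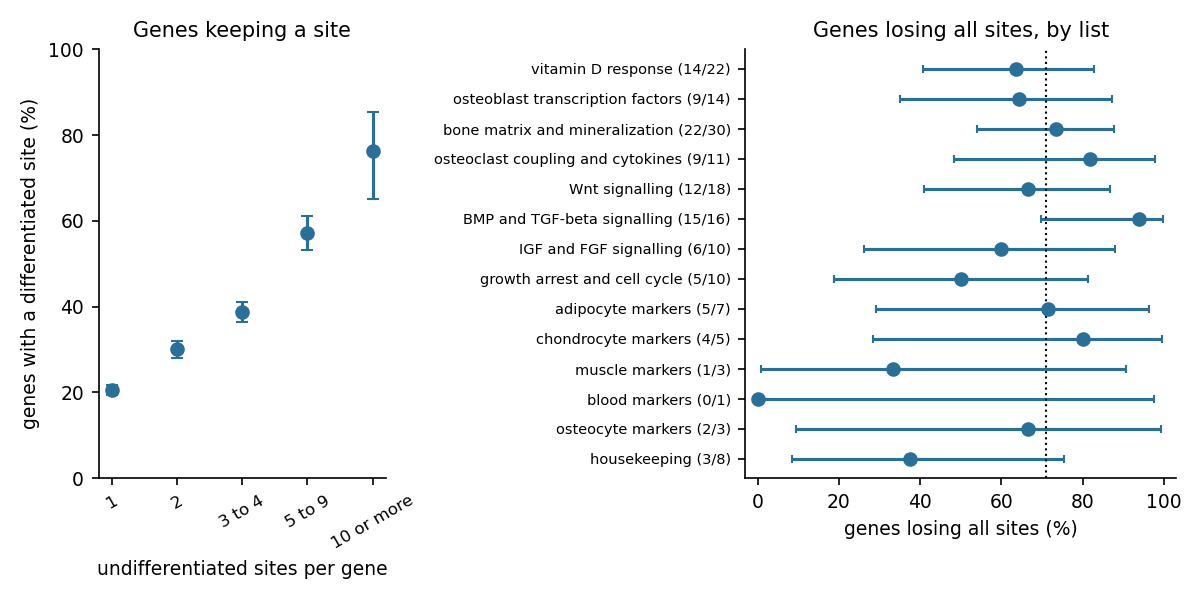
Left, share of genes with a differentiated VDR site within 100 kb (vertical axis, percent) by the number of undifferentiated sites per gene; right, share of genes losing all sites in each gene list (horizontal axis, percent), with losing genes over genes with an undifferentiated site in the labels. Points have exact 95% intervals, and the dotted line marks the 70.9% of all genes, which lies within the interval of every list.

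The 14 gene lists lost sites at about the rate of all genes. Of 148 list genes with an undifferentiated site, 46 kept a site and 102 (68.9%, 60.8 to 76.3) lost all, against 70.9% of all genes. The interval of each list held that value. The 70.9% was not matched for the number of sites per gene. Over all genes, the share losing all sites was 79.4% with 1 site, 69.9% with 2, 61.2% with 3 to 4 and 23.7% with 10 or more. The list genes with an undifferentiated site had a median of 2 sites, and those of the matrix and mineralization list a median of 3. Among lists with at least 8 such genes, the extremes were these: the BMP and TGF-beta list lost all sites at 15 of 16 genes (93.8%, 69.8 to 99.8) and the housekeeping list at 3 of 8 (37.5%, 8.52 to 75.5). Lists of other cell types had few genes with a site: 5 of 7 adipocyte, 4 of 5 chondrocyte, 1 of 3 muscle and 0 of 1 blood genes lost all, and 2 of 3 osteocyte genes.

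In the vitamin D list 14 of 22 genes (63.6%, 40.7 to 82.8) lost all sites. Cyp24a1 had 0 differentiated and 3 undifferentiated sites, at 37.1 and 35.3 kb downstream and -0.3 kb, and the downstream sites are those printed above. Cyp24a1 was named after its values were seen, and among the named genes it was the one with no H3K4me1 call at any lost site in either state. RXR and C/EBPβ were each called at 0 of the 3 sites in differentiated and 2 of 3 in undifferentiated cells, and H4K5ac also at 0 and 2. Cyp27b1, the enzyme that makes calcitriol, had 0 and 4 sites, and Rxra, which encodes an RXR, had 0 and 11. At Rxra, RXR was called at 8 of the lost sites in each state and H3K4me1 at all 11 in each state. Tnfsf11 had 0 and 6 sites, between 10.4 kb downstream and -76.5 kb. At these, RXR was called at 2 sites in differentiated and 3 in undifferentiated cells, RUNX2 at 1 and 4, and H4K5ac and H3K4me1 at all 6 in both. Vdr itself, named after its values were seen, had 1 differentiated and 5 undifferentiated sites, and the kept site lay in an intron at 17.9 kb. Thbd, the anticoagulant receptor thrombomodulin, had 1 and 7 sites, and its kept site at 81.3 kb held a DR3.

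The matrix and mineralization list lost all sites at 22 of 30 genes (73.3%, 54.1 to 87.7), and its keepers included the gene with the most kept sites in all lists. Spp1 had 4 differentiated and 11 undifferentiated sites, and the kept sites lay at -27.0, -1.9, -0.8 and -0.2 kb. RXR and RUNX2 were called at all 4 of these in both states, while C/EBPβ was called at 3 in each state. The site at 0.1 kb and the 6 other sites between -60.9 and -6.6 kb were lost. Mepe, a secreted phosphoprotein gene of bone next to it, shared 5 of its 6 undifferentiated sites with Spp1 and kept the one at -27.0 kb of Spp1. Ibsp, bone sialoprotein, in the same gene cluster, had 0 and 5 sites. Mgp had 1 and 14 sites. The kept site at 9.2 kb had a vehicle call, RXR, C/EBPβ and RUNX2. Fmod, fibromodulin, had 1 and 10 sites, with the kept site at -34.2 kb. Mmp13 had 2 and 2 sites, since its differentiated-only site stands beside a kept site, both with a DR3 and RXR in differentiated cells. Sparc, named after its values were seen, had 1 and 3 sites.

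The next genes of the matrix list were named because they had lost all their sites, so that outcome is no finding about them. Col1a1 and Col1a2, the chains of type I collagen, had 0 differentiated sites and 4 and 8 undifferentiated sites. Col5a1 had 0 and 4, and Lox, which cross-links collagen, 0 and 5. Dcn, decorin, had 0 and 10 sites and Lum, lumican, 0 and 7, all 7 of them shared with Dcn. At the 8 sites of Col1a2, RXR was called at 5 in each state, C/EBPβ at 4 in differentiated and 6 in undifferentiated cells, and RUNX2 at 6 and 7. H4K5ac and H3K4me1 were called at all sites of these 6 genes in both states. Bglap, osteocalcin, had 0 and 1, and Alpl, the bone alkaline phosphatase, 0 and 3, both named after their values were seen.

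In the osteoblast transcription factor list 9 of 14 genes lost all sites. Cebpb had 1 differentiated and 9 undifferentiated sites, and the kept site at 76.3 kb held the exact DR3 with a vehicle call and RXR. Fosl2, an AP-1 subunit, had 2 and 7. Runx2 had 0 and 1, and Sp7 (osterix) had 1 and 2, both named after their values were seen. The kept site of Sp7 lay 40.2 kb downstream at the start of another gene, Pfdn5, with a vehicle call and without RXR in either state. In the list of osteoclast coupling and cytokines 9 of 11 genes lost all. Csf1, the macrophage growth factor that osteoclast precursors need, had 1 and 11 sites, and the kept site at 44.4 kb had RXR, C/EBPβ and RUNX2 in both states. Lif, a cytokine, had 0 and 5.

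In the Wnt list 12 of 18 genes (66.7%, 41.0 to 86.7) lost all sites, close to the 70.9% of all genes. Receptors and effectors stood on both sides: the receptor genes Fzd1, Fzd2, Fzd7 and Lgr4 and the transcription factor gene Lef1, named here after their values were seen, lost their 1 or 2 sites each. Tcf7l1, a transcription factor of the pathway, had 3 differentiated and 10 undifferentiated sites, the kept sites at -23.3, 26.4 and 76.9 kb. Tcf7l2, its relative, had 2 and 9, with both kept sites called under vehicle. The co-receptor Lrp5 had 1 and 8 sites, with the kept site in an intron at 19.2 kb, and Lrp6 had 1 and 6. Axin2, a feedback inhibitor of the pathway, had 0 and 5, and at 4 of these no partner factor was called in differentiated cells. In the BMP and TGF-beta list Tgfbr3 (betaglycan), a co-receptor, was the keeper with 2 and 8 sites. The ligand gene Tgfb2 and Ltbp1, which encodes a protein that binds latent TGF-beta, had 0 and 5 each.

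In the IGF and FGF list 6 of 10 genes lost all sites. Igfbp5 had 2 differentiated and 8 undifferentiated sites and Igfbp2 1 and 9. These neighbours shared 7 undifferentiated sites, among them the kept one with the exact DR3 printed above, at 66.3 kb from Igfbp2 and -40.1 kb from Igfbp5. Igfbp4 had 2 and 9, with a kept site at 66.2 kb and a differentiated-only site at 94.5 kb, and Fgfr2, a fibroblast growth factor receptor, had 1 and 8. In the growth arrest list 5 of 10 lost all, and Cdkn1b, a cell cycle inhibitor, had 1 and 8. Col2a1, the cartilage collagen, had 0 and 4 sites, of which 2 also counted for Vdr. Actb, cytoplasmic actin, had 2 and 17 sites, the largest number at a gene that kept a site, and its kept sites lay at -3.2 kb, with a DR3, and at 88.0 kb, at the start of another gene. Col12a1 had 1 and 5, and its kept site was likewise at the start of another gene, Cox7a2.

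**Figure D5:**
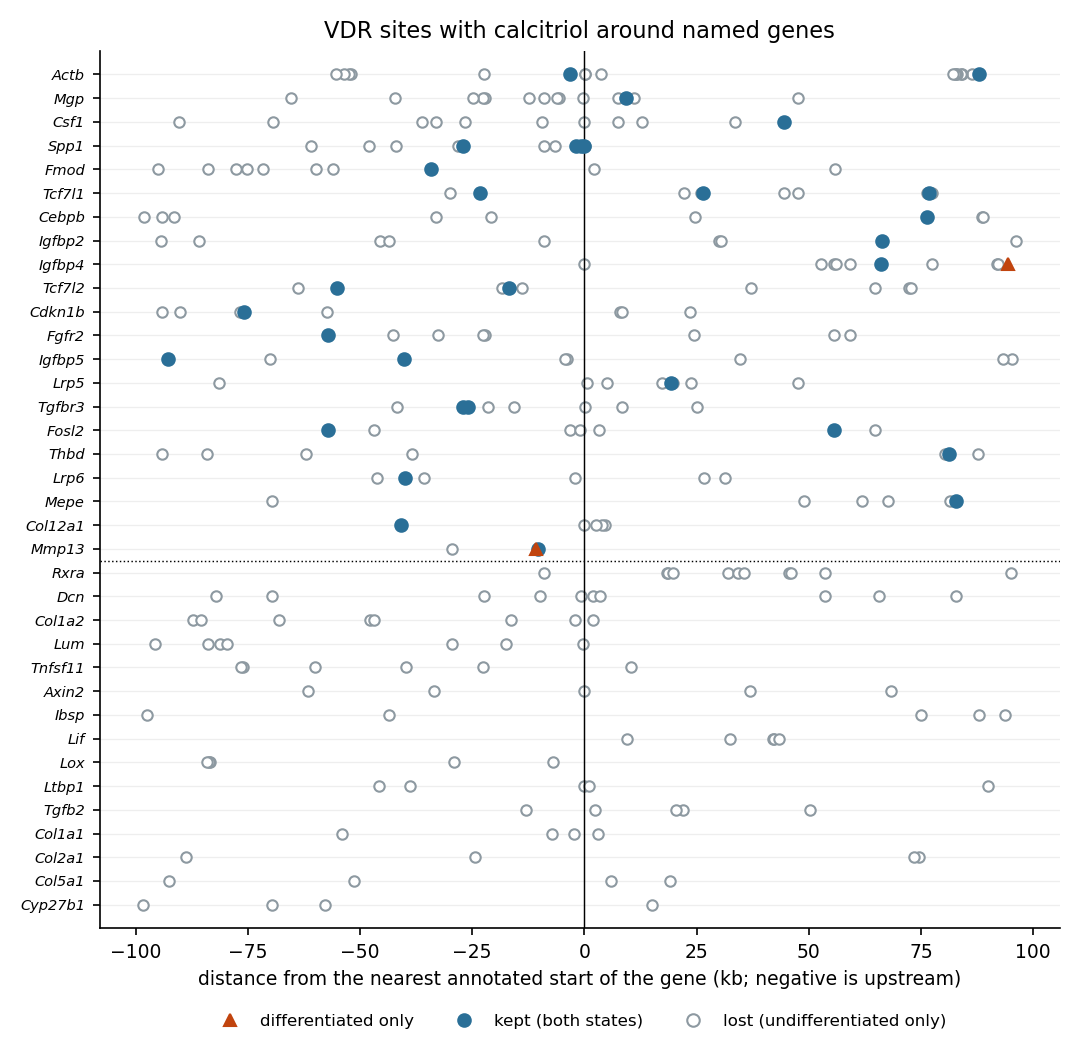
Position of each VDR site within 100 kb of the nearest annotated start of the named list genes (horizontal axis, kb, negative upstream). Filled circles are kept sites, open circles lost sites and triangles differentiated-only sites; genes above the dotted line kept a site, and the 4 kept sites of Spp1 include 3 within 2 kb of its start.

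Outside the lists, the genes with the most kept sites were of another kind. Pgbd1 and Zfp187 had 6 differentiated and 6 undifferentiated sites, all kept, and the 3 next genes, AK157302, Gm10065 and Gm11273, had 5 and 5. They lie in a cluster on chromosome 13 and share these sites. All 6 sites had a vehicle call, H3K4me1 and H4K5ac, none had RXR with calcitriol or a DR3, and 1 had RXR under vehicle in differentiated cells. Those at Zkscan3, Zkscan4 and Zfp192 hold the ETS motifs printed above. The genes with the most undifferentiated sites and none kept were Dnm3 with 15, Ablim1 and Ddc with 14 each, and 4930558K02Rik and A730013G03Rik with 12 each. At the 12 sites of A730013G03Rik, RXR was called at 10 in differentiated and 8 in undifferentiated cells and RUNX2 at 9 in each state.

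The 80 differentiated-only sites did not resemble the kept ones. VDR was called under vehicle in differentiated cells at 38 of them (47.5%, 36.2 to 59.0), RXR at 21 (26.2%, 17.0 to 37.3), H3K4me1 at 41 and a DR3 at 6. Differentiated only refers to the calcitriol lists: 9 of the 80 (11.25%, 5.28 to 20.3) overlapped a VDR site called under vehicle in undifferentiated cells. Vehicle calls in the rest of this paragraph are those of differentiated cells unless stated. Of the 80, 22 lay on chromosome X, out of 29 differentiated sites there, and of these 22, 16 had a vehicle call, 0 had RXR and 3 had H3K4me1. At 6 nearest genes there were 3 or more of these sites, 28 in all: Brd3 and Vmn2r121 with 6 each, Tcte2 with 5, Gm17521 and Sfi1 with 4 each and Gm17467 with 3. These 28 had 0 RXR calls, 19 vehicle calls and 8 H3K4me1 calls. Counting by nearest gene split a further group on chromosome 9. Of the 10 differentiated-only sites there, all but those nearest to Mmp13 and Osbpl10 lay between positions 3002093 and 3035129. Their nearest genes ran from Gm10722 to Gm17535, and only the site nearest to Gm11168 had RXR. The 21 sites with RXR were different: 19 had H3K4me1, 4 a DR3 and 2 a vehicle call, and no pair of them lay in the same bin of 100 kb. In genome order, the first 10 of them were nearest to Slc40a1 (ferroportin, the iron exporter), Nrp2, Mrc1, Gm355, Nxt1, Chmp4b, Commd2, AF064781, Taf12 and Fzd1, a Wnt receptor, with distances from 4516 bp (Taf12) to 221206 bp (Fzd1). Those at Slc40a1 and Nxt1 held a DR3. Those at Chmp4b, AF064781 and Taf12 had the centre of an undifferentiated VDR site 483, 268 and 257 bp away. The Taf12 site also overlapped a VDR site called under vehicle in undifferentiated cells.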

How the data were processed

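ChIP-seq was performed for VDR with calcitriol in differentiated and undifferentiated MC3T3-E1 cells. The tools were Bowtie and HOMER and the build was mm9, per the submitters' processing notes; their versions and cut-offs were not given in the sources used here. The design text states biological replicates, and region names in the deposited lists count merged peaks, so each list was taken as what the replicates shared. The score column deposited by the authors was 0 in every region of the factor lists and was not used. The lists hold no read counts, so depth is unknown.

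Overlaps, exact Clopper-Pearson and Newcombe 95% intervals and motif matches were computed with Python 3.11.15, numpy 2.4.6, scipy 1.17.1 and pysam 0.24.0, and checked on simulated data. Regions on chromosomes 1 to 19 and X were placed on the mm9 sequence with the GENCODE vM1 annotation, with gene IDs of the same symbol and chromosome joined into 22208 protein-coding genes. Motif matches, which may overlap each other, were sought in 200 bp at each centre on either strand, and in equal windows 2 kb upstream and downstream of undifferentiated sites. The direct repeats allowed 1 mismatch unless stated and the other motifs none. Each group is 1 list, so no test was made.

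The members and the gene lists (14 lists, 220 genes, of which Cebpd and Spi1 were not in the annotation) were chosen with earlier results of these data known. Named genes were the list members with the most undifferentiated sites, up to 20 that kept and 15 that lost all; list members with a differentiated-only site; 5 genes with the most kept sites and 5 with the most sites and none kept; and the nearest genes of the first 10 differentiated-only sites with RXR. Alternatives were other overlap rules, merged-peak counts, vehicle or promoter sites left out, and other windows and motif rules. Autosomes only, and 2 stricter rules for a gene's own sites, were added after the data were seen. The sequence of 1 lost site is not reported here.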

Additional observations from a re-analysis of the deposited data

How the results depend on the processing

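No paired analysis was possible because each group is 1 list with no replicate of its own, and for the same reason no replicate could be left out. Of 61 alternative values for 12 results, 27 stayed within the interval of the reported value, 30 moved beyond it and 4 changed sign. The cause of these shifts was not tested.

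For the shares of sites and of genes, vehicle or promoter sites were left out of both lists, so the filter can also remove a counterpart. The kept share of 11.3% became 7.11% without vehicle sites, 8.35% without promoter sites and 12.1% with regions within 1 kb joined. The share of differentiated sites present in undifferentiated cells, 90.8%, became 87.3% with more than 0.5 of a site shared, 88.7% with regions merged from exactly 2 peaks, 71.6% without vehicle sites, 87.1% without promoter sites, 93.1% with regions within 1 kb joined and 93.1% on autosomes only. The share of genes losing all sites, 70.9%, became 75.8% within 20 kb, 50.9% within 500 kb, 79.5% with the nearest gene only, 83.5% without vehicle sites, 83.6% without promoter sites and 72.2% when a gene's own site had to be overlapped by more than 0.5 of its length. The RXR share of 61.6% became 57.6% with more than 0.5 of a site shared, 63.9% with centres within 500 bp and 58.0% with regions merged from exactly 2 peaks.

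Kept minus lost differences, in percentage points, changed sign for H3K4me3 (-2.85) and promoter position (-1.52) without vehicle sites, and for C/EBPβ of undifferentiated cells without vehicle (7.34) and without promoter sites (6.11). Without vehicle sites, DR3 moved to 26.1, RXR of differentiated cells to 37.1, RXR of undifferentiated cells to 24.4 and H3K9ac to 1.85. Without promoter sites, DR3 moved to 24.2, RXR of differentiated cells to 35.9, RXR of undifferentiated cells to 23.7, H3K4me3 to 2.38, H3K9ac to 6.83 and RUNX2 to -2.51. An exact DR3 gave 3.41 and a window of 100 bp gave 6.98. Depth is unknown, so a lost site may lie below the calling threshold.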
